A study of Mus musculus with 2 samples.

Results

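The 10 genes described here, S100a8, S100a9, Lcn2, Ngp, Camp, Ltf, Mpo, Elane, Prtn3 and Ctsg, encode granule and S100 proteins of neutrophils, and were selected by symbol among 26124 genes counted in mouse spleen cells. All 10 had UMIs in both libraries. Spleen cells enriched on beads carrying an anti-F4/80 antibody were profiled by droplet single-cell RNA-seq, in which each transcript end captured carries a unique molecular identifier (UMI). One library came from a control mouse, labelled wild-type, and the other from a mouse with sickle cell disease (SCD), so that each condition has 1 mouse. Both mice were 12 to 16 weeks old and untreated. The control was homozygous for Hbatm1Paz, heterozygous for Hbbtm1Tow and hemizygous for Tg(HBA-HBBs)41Paz, and the SCD mouse was homozygous at all of them, so the deleted mouse α-globin alleles and the human sickle transgene were present in both mice. The control is therefore not an unmodified mouse.

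Neutrophils build their granules in sequence. Promyelocytes fill primary (azurophil) granules with myeloperoxidase and serine proteases, later precursors fill secondary granules with lactoferrin, lipocalin 2, cathelicidin and neutrophilic granule protein, and mature neutrophils keep large amounts of S100a8 and S100a9 transcript after most granule transcripts have been lost. When such cells break during preparation, their transcripts can enter droplets that hold other cells, where they are counted with the transcripts of those cells. Such transcripts are called free RNA here. The counts do not separate them from a cell's own transcripts.

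S100a8 and S100a9 lie on chromosome 3 (GRCm38, 90668978 to 90670035 and 90692632 to 90695721). Ngp, Camp and Ltf lie within a stretch of chromosome 9 (110419747 to 110423012, 109847379 to 109849617 and 111019271 to 111042767). Prtn3 and Elane are neighbours on chromosome 10 (79874476 to 79883174 and 79886247 to 79888215). Lcn2 lies on chromosome 2, Mpo on chromosome 11 and Ctsg on chromosome 14. All 10 had an entry among RefSeq promoters of build GRCm38.p6. Windows of 300 bases, 250 before and 50 after the start, were searched on both strands for 3 motifs. A C/EBP-type motif was searched as TTNNGNAA. An Ets-type motif, of the family to which PU.1 belongs, was searched as AGGAAGT. The TATA box was searched as TATAAA. These motifs were chosen with the sequences known. AGGAAGT occurred in 5 of the 10 windows, namely those of S100a8 and of all 4 primary granule genes, against 9.35% of 32851 promoters. TTNNGNAA occurred in 5 of 10 against 40.7%, and TATAAA in 3 of 10 against 13.6%. The 250 bases before the start are shown for a gene of each kind that the results turn on, 5′ to 3′ on the plus strand, with the matches on either strand in capitals, none of which overlap.
S100a8 (chr3:90668821-90669070): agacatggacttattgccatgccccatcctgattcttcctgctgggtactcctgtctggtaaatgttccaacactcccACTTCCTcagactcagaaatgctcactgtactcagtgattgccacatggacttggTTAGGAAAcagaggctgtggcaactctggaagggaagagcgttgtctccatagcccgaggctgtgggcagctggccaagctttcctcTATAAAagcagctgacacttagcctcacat
Ngp (chr9:110419558-110419807): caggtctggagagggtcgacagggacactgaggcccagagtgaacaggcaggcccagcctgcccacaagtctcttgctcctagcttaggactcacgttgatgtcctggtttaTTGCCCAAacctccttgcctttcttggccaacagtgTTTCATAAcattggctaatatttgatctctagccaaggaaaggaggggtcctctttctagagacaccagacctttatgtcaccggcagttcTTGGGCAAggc
Mpo (chr11:87793534-87793783): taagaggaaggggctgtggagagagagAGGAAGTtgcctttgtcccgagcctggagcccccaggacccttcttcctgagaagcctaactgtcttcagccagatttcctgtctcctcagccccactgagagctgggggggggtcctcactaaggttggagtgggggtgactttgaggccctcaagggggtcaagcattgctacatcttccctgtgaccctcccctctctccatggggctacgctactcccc
Elane (chr10:79886062-79886311): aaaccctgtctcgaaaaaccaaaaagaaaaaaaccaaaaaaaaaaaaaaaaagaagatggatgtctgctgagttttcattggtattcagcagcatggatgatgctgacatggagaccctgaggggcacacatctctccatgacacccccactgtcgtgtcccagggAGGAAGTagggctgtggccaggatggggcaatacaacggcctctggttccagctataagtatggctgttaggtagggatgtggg
S100a8 holds a match to each of the 3 motifs, Ngp has 3 matches to TTNNGNAA alone, and Mpo and Elane each have a single AGGAAGT. A match describes the letters and not a bound site.

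The wild-type-labelled library held 145953464 UMIs in 24144 barcodes, of which 19419 were kept as cells, and the SCD-labelled library held 73986356 UMIs in 15442 barcodes, of which 12280 were kept. The mouse β-globin genes went against the labels, since the SCD genotype lacks them. Hbb-bs stood at 144 CPM (UMIs of a gene per 1000000 UMIs) in erythroid-like cells of the wild-type-labelled library and at 62349 CPM in those of the SCD-labelled library, and Hbb-bt at 244 and 18979 CPM. Hba-a1, deleted in both genotypes, stood at 27262 and 32174 CPM. Directions below therefore refer to the labels. Kept cells formed 26 clusters with the 10 genes left out of the clustering. In all, 107 barcodes occurred in both libraries. With 1 mouse per condition no test is possible, and all intervals (95%) cover counting error only.

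Neutrophil-like cells were the main holders of the S100 and secondary granule genes. The neutrophil-like cluster had 10 of 12 neutrophil markers and was led, among all genes, by Ngp, Camp, Ltf, S100a9, S100a8 and Lcn2. This cluster also had 6 of 7 granulocyte-monocyte progenitor markers, with Cebpe in 90.2% and Fcnb in 61.1% of its cells. It held 242 cells of the wild-type-labelled library, which is 1.25% of its kept cells (exact binomial interval 1.10 to 1.41), and 2 cells of the SCD-labelled library (0.0163%, interval 0.00197 to 0.0588). The latter count depended on the processing. It was 16 with cell totals in place of scran, 14 with the members among the variable genes and 0 with each library clustered on its own. Levels of the SCD-labelled library below refer to the 2 cells. The 10 genes made up 4.63% of a cell's UMIs in the lowest, 25.1% in the median and 40.9% in the highest of the 242 cells. In the 2 cells of the SCD-labelled library they made up 17.8% and 32.4%, within that range. Bead enrichment for F4/80, a macrophage marker, precedes these shares, so they do not describe the spleen as a whole.

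S100a8 and S100a9, the subunits of calprotectin, were the most abundant of the 10 in the neutrophil-like cluster. S100a8 reached 63334 CPM in the wild-type-labelled library (exact Poisson interval 62963 to 63706) and 63309 CPM (59663 to 67119) in the 2 cells of the SCD-labelled library. S100a9 reached 66528 and 53123 CPM. Every one of the 242 cells had UMIs of both genes.

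Among the secondary granule genes, Ngp, a cathelicidin-related protein, reached 49117 CPM in the wild-type-labelled library and 46258 CPM in the SCD-labelled library. Camp, which encodes the antimicrobial peptide cathelicidin, stood at 23761 and 38717 CPM, Ltf, the iron-binding lactoferrin, at 13236 and 10298 CPM, and Lcn2, which binds bacterial siderophores, at 9513 and 8329 CPM. Of these 6 S100 and secondary granule genes Camp differed most between the libraries, and it rested on 460 and 228 UMIs in the 2 single cells of the SCD-labelled library. Of the 242 cells, 241 had Ngp, 240 had Camp and 238 had Ltf.

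Primary granule genes were restricted to few of the neutrophil-like cells. Mpo, which makes hypochlorous acid, was found in 16 of the 242 cells, Elane (neutrophil elastase) in 17, Prtn3 (proteinase 3) in 30 and Ctsg (cathepsin G) in 3. Their cluster levels were 184, 259, 159 and 5.09 CPM. Of these UMIs, 96.9% came from the 14 cells with at least 5 primary granule UMIs, and the highest single cell counts were 245 for Mpo and 294 for Elane.

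A cluster led by Mpo, Prtn3 and Elane held most primary granule UMIs in the kept cells of the wild-type-labelled library. It contained 203 cells of the wild-type-labelled library (1.05%, interval 0.907 to 1.20) and 8 of the SCD-labelled library. Of the 7 progenitor markers it had 3, Cebpe, Fcnb and Myb, and it also had all 6 Ly6c-high monocyte markers, so it is named here by its leading gene. In the wild-type-labelled library Prtn3 stood at 512 CPM, Mpo at 501, Elane at 335 and Ctsg at 49.6 CPM, and 69.8%, 56.7%, 55.8% and 82.4% of the kept-cell UMIs of Mpo, Elane, Prtn3 and Ctsg lay in this cluster. Of the 141 primary granule UMIs in kept cells of the SCD-labelled library the cluster held 59, and cells outside it and the neutrophil-like cluster held 69. Elane lay mostly in the cluster there (71.4%), and Mpo (30.2%) and Prtn3 (38.5%) did not.

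Within the Mpo-led cluster the genes were uneven. A median cell had 3 member UMIs, whereas 40 of the 203 cells had 20 or more and the highest had 2974. Prtn3 was found in 123 cells, Elane in 87, Mpo in 60 and Ctsg in 35. S100a8 (1518 CPM) was found in 83 of the 203 cells and Ngp (688 CPM) in 26. Among all 203 cells the S100 genes made up 50.3% of the member UMIs, the secondary granule genes 23.5% and the primary granule genes 26.2%. Without the 1% of cells with the most member UMIs these shares were 29.2%, 2.42% and 68.3%. In the 8 cells of the SCD-labelled library, Prtn3 stood at 250 CPM (162 to 369), Elane at 200, Mpo at 130 and Ctsg at 9.99 CPM, and Ngp, Camp and Ltf had 0 UMIs, which allows up to 3 counts each. Of these 8 cells, 4 were marked as doublets.

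**Figure D1:**
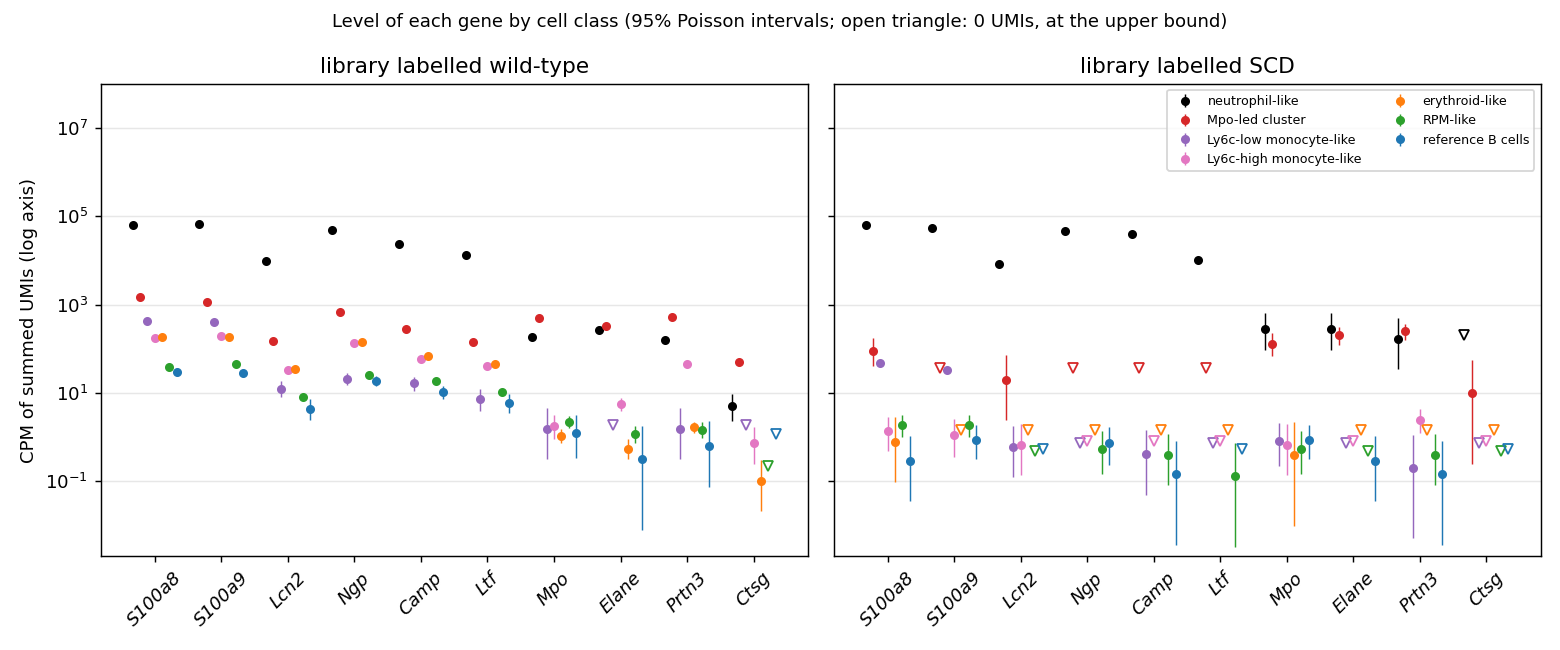
Level of each gene (CPM of summed UMIs, log axis) in 7 classes of cells in each library, with 95% Poisson intervals and open triangles at the upper bound where no UMI was found. In the left panel S100a8 went from 63334 CPM in the neutrophil-like cluster to 30.1 CPM in the reference B cells, and Ngp, Camp, Ltf and Lcn2 came in that order in both. In the right panel, outside the neutrophil-like and Mpo-led clusters, only S100a8 and S100a9 in Ly6c-low monocyte-like cells stood above 10 CPM.

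The residual level was read first in B cells, which do not make granule proteins. The largest B lymphocyte-like cluster (6 of 6 B cell markers) served as reference, with 778 cells of the wild-type-labelled library (median 2855 UMIs) and 1857 of the SCD-labelled library (median 2965 UMIs). In the wild-type-labelled library these cells held 320 UMIs of the 10 genes, or 100 CPM (89.6 to 112), which is 0.0443% of the neutrophil-like level. Those of the SCD-labelled library held 23 UMIs, or 3.34 CPM (2.12 to 5.01). The log2 ratio of the SCD-labelled library to the wild-type-labelled library was -4.91 (-5.59 to -4.30).

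A single cell of the SCD-labelled library held 8 of those 23 UMIs, and its barcode also occurred in the wild-type-labelled library. Over both libraries, 3 neutrophil-like barcodes of the wild-type-labelled library recurred in the SCD-labelled library, where they carried 16 member UMIs together. Without shared barcodes the reference level in the SCD-labelled library was 2.19 CPM and the log2 ratio -5.52 (-6.37 to -4.78). The ratio also depended on which cells entered the reference cluster. Other clusterings drew cells with many S100a8 UMIs into it in the SCD-labelled library and gave ratios as near to 0 as -1.03, whereas without B cells of 5 or more member UMIs the same clusterings gave -5.86 to -5.19.

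By gene, S100a8 stood at 30.1 CPM (24.4 to 36.7) in the reference B cells of the wild-type-labelled library and at 0.290 CPM (0.0352 to 1.05) in those of the SCD-labelled library. S100a9 stood at 28.5 and 0.871 CPM, Ngp at 18.8 and 0.726 CPM, and Camp at 10.3 and 0.145 CPM. Lcn2 (4.39 CPM) and Ltf (5.95 CPM) had 0 UMIs in the SCD-labelled library, so they were at least 10.1-fold and 13.7-fold lower there, taking 0 to allow 3 counts. For these 6 genes the intervals of the libraries did not overlap. No share of all genes in these B cells is set beside that count, so it does not set the 6 apart from other genes. The S100a8 and S100a9 ratios are the ones that move with the clustering, being as near to 0 as -0.18 and -0.46 on the log2 scale where the granule and S100 lists were left out.

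The primary granule genes had few UMIs in the same B cells. Mpo had 4 UMIs in the wild-type-labelled library (1.25 CPM) and 6 in the SCD-labelled library (0.871 CPM), a log2 ratio of -0.53 with an interval from -2.60 to 1.74. Elane had 1 and 2 UMIs, Prtn3 had 2 and 1, and Ctsg had none in either. A difference between the libraries was not detectable for these 4 genes at this depth.

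The share of cells with any member UMI followed the same line. It was 33.9% (30.6 to 37.4) of the reference B cells of the wild-type-labelled library and 0.862% (0.493 to 1.40) of those of the SCD-labelled library. After each cell was thinned to 1000 UMIs, which left out 7 and 20 shallower cells, the shares were 12.1% and 0.326%. Since B cells lack these genes, such shares are the background against which the other classes are read.

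**Figure D2:**
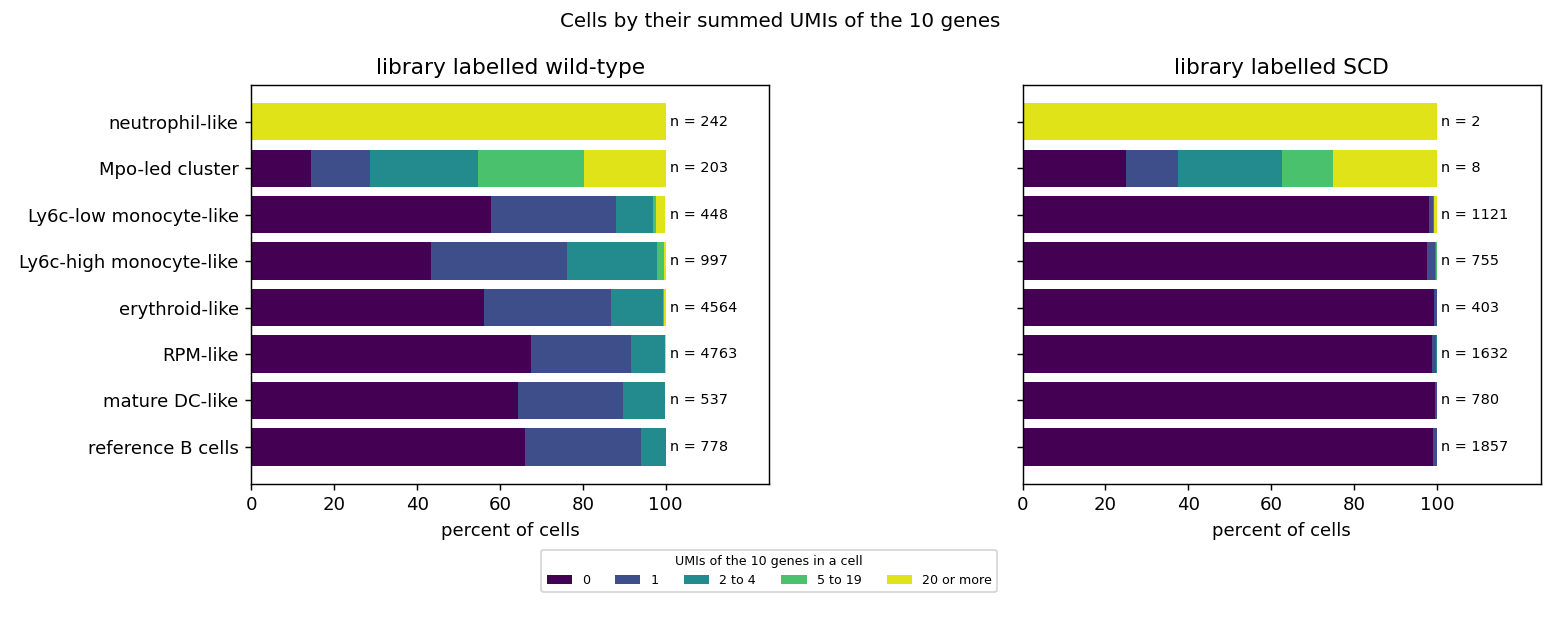
Percent of cells in 8 classes by their summed UMIs of the 10 genes, in each library, with the number of cells beside each bar. In the wild-type-labelled library 33.9% of reference B cells had at least 1 such UMI and in the SCD-labelled library 0.862%, while all neutrophil-like cells had 20 or more in both.

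Cells outside the neutrophil-like and Mpo-led clusters, called residual cells below, numbered 18974 in the wild-type-labelled library and 12270 in the SCD-labelled library. Their mix differed between the libraries. Erythroid-like cells were 23.5% of kept cells in the wild-type-labelled library and 3.28% in the SCD-labelled library, and B lymphocyte-like cells 4.52% and 17.75%. The part of this mix in the residual ratios was not tested. In the wild-type-labelled library 40.8% of them had a member UMI, and in the SCD-labelled library 1.23%. With at least 100 UMIs in both libraries together as the limit, 9 of the 10 genes could be compared (Ctsg had 20 UMIs), and 9 of 9 were more than 2-fold lower in the SCD-labelled library. All of these but S100a8 and S100a9 had under 100 UMIs in the SCD-labelled library. They passed the limit through the wild-type-labelled library alone, where they are high, so the count is a description and not a test. Of all 12960 genes compared this way, 9.58% were more than 2-fold lower and 12.4% more than 2-fold higher. Their median log2 ratio was -4.92, and over all genes compared the median was 0.19.

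The secondary granule genes differed most. In residual cells Ngp stood at 66.3 CPM in the wild-type-labelled library and 0.170 CPM in the SCD-labelled library, a log2 ratio of -8.61 (-9.61 to -7.77), and Ltf at 21.2 and 0.0926 CPM, a ratio of -7.84. S100a8 (103 and 7.47 CPM, ratio -3.78) and S100a9 (105 and 5.90 CPM, ratio -4.16) differed less, and Mpo the least of those compared (1.80 and 0.386 CPM, ratio -2.22, interval -2.89 to -1.62). When cells with 5 or more member UMIs were left out, the ratios of S100a8 (-6.24) and S100a9 (-6.30) came close to those of Camp (-6.14) and Ltf (-6.10), and Ngp stood at -7.19. Lcn2 stood at -5.31, nearer to 0 than the S100 genes. Among the primary granule genes Elane stood at -3.71, Prtn3 at -3.10 and Mpo at -1.39.

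Most residual UMIs of the wild-type-labelled library sat in few cells. Of its 18974 residual cells 49 had 20 or more member UMIs, and these held 69.5% of the 36797 member UMIs. Among 12270 cells of the SCD-labelled library 11 did, with 77.5% of 974 UMIs. Without cells of 5 or more member UMIs the residual level was 104 CPM (102 to 106) in the wild-type-labelled library and 2.30 CPM (1.95 to 2.70) in the SCD-labelled library. For all kept cells together, the 2 neutrophil-like cells held 79.0% of the 4967 member UMIs of the SCD-labelled library, and without them its level went from 76.5 to 16.1 CPM.

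Erythroid-like cells show the same point. Their summed level was 666 CPM in the wild-type-labelled library, above the reference B cells, but 15 of 4564 cells with 20 or more member UMIs held 85.6% of it, and 13 of those 15 were marked as doublets. Without the 1% of cells with the most member UMIs the level was 92.8 CPM, against 93.1 CPM in the reference B cells treated alike. Red pulp macrophage-like (RPM-like) cells stood at 114 CPM and mature dendritic cell-like (mature DC-like) cells at 105 CPM on this measure. Erythroid-like cells were deeper (median 4788 UMIs against 2855), and CPM fell with depth. Equal CPM therefore does not mean an equal residual. With the same cells left out, erythroid-like cells held 0.585 member UMIs per cell and reference B cells 0.382. In groups of like depth these were 0.468 (0.424 to 0.515) at 2741 UMIs and 0.266 (0.191 to 0.361) at 2855 UMIs. Intervals overlapped at 1385 and 1400 UMIs (0.340 and 0.318) and at 4743 and 4454 UMIs (0.532 and 0.396). The 403 erythroid-like cells of the SCD-labelled library held 3 member UMIs in all.

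**Figure D3:**
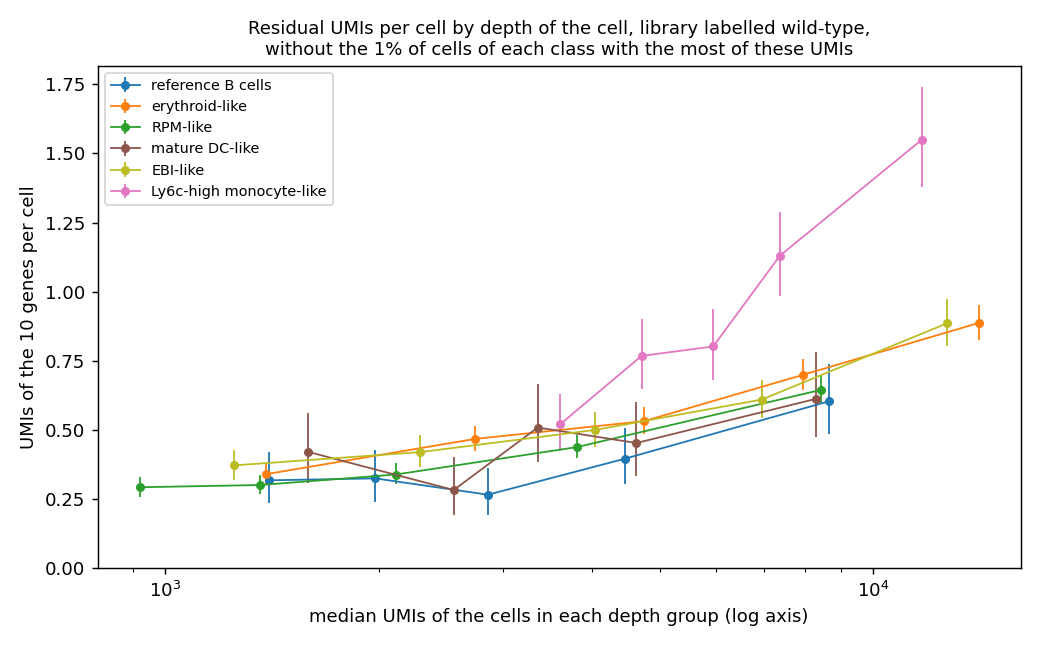
UMIs of the 10 genes per cell (95% Poisson intervals) against the median UMIs of each of 5 depth groups of the cells of 6 classes (log axis), in the wild-type-labelled library without the 1% of cells with the most of these UMIs. Reference B cells went from 0.318 to 0.604 UMIs per cell between the shallowest and the deepest group, and Ly6c-high monocyte-like cells from 0.520 to 1.55.

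In reference B, RPM-like and erythroid-like cells the residual UMIs per cell rose less than the depth of the cells, and in Ly6c-high monocyte-like cells they rose nearly with it. Reference B cells of the wild-type-labelled library, parted into 5 equal groups by depth, had a median of 1400 UMIs in the shallowest and 8661 in the deepest group. Their member UMIs per cell were 0.318 (0.235 to 0.421) and 0.604 (0.487 to 0.740), so that the CPM fell from 229 to 62.0. In RPM-like cells the values were 0.293 and 0.645 UMIs per cell at 920 and 8430 UMIs, and in erythroid-like cells 0.340 and 0.887 at 1385 and 14080 UMIs. Ly6c-high monocyte-like cells went from 0.520 to 1.55 UMIs per cell between 3608 and 11709 UMIs, with 159 and 127 CPM. EBI-like cells, which hold genes of both macrophages and erythroid cells as erythroblastic islands do, went from 0.372 to 0.886.

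The makeup of the residual was set beside that of the neutrophil-like cells. In the neutrophil-like cluster of the wild-type-labelled library S100a8 and S100a9 made up 57.2% of the member UMIs and the secondary granule genes 42.5%, without the 1% of cells with the most member UMIs. In the reference B cells these shares were 58.8% (53.0 to 64.5) and 38.8% (33.2 to 44.6), in RPM-like cells 55.2% and 42.7%, in erythroid-like cells 55.9% and 41.6%, and in mature DC-like cells 57.0% and 41.3%. Ngp alone made up 21.9% in the neutrophil-like cluster and 17.7% in the reference B cells. The primary granule genes made up 0.279% in the neutrophil-like cluster but 2.38% (0.963 to 4.84) in the reference B cells, 2.10% in RPM-like and 2.53% in erythroid-like cells, a share above that of the kept neutrophil-like cells. Where these UMIs came from was not tested.

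**Figure D4:**
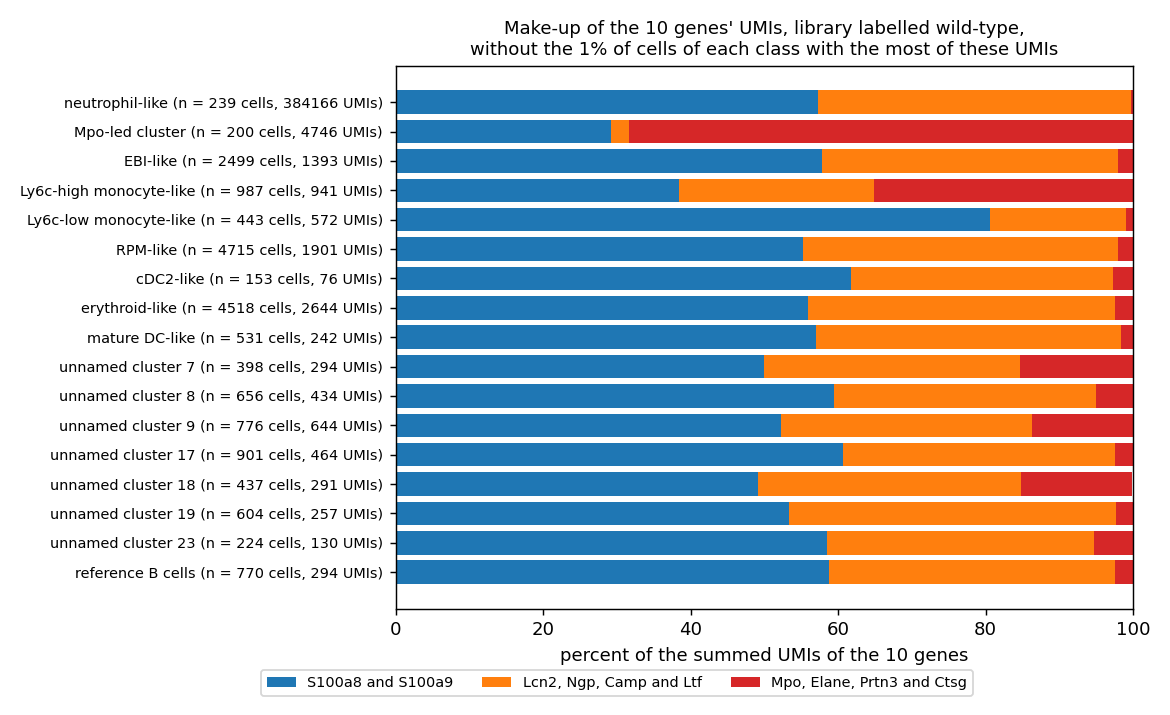
Percent of the summed UMIs of the 10 genes that belong to the S100, the secondary granule and the primary granule genes in 17 classes of cells of the wild-type-labelled library, without the 1% of cells of each class with the most of these UMIs. Reference B, RPM-like and erythroid-like cells had S100 shares of 58.8%, 55.2% and 55.9%, near the 57.2% of neutrophil-like cells, while Ly6c-low monocyte-like cells had 80.6% and Ly6c-high monocyte-like cells had 35.3% from primary granule genes. Clusters without a name carry their number, and 7, 9 and 18 are those led by Hbb-bs, Slfn14 and Clec10a.

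Ly6c-high monocyte-like cells departed from that ratio through Prtn3. Without the 1% of cells with the most member UMIs, the primary granule genes made up 35.3% (32.2 to 38.4) of their member UMIs, and Prtn3 alone 30.1%. Among all 997 cells these shares were 7.67% and 6.47%. The levels that follow are of all cells. Prtn3 stood at 44.1 CPM (39.2 to 49.4) in these 997 cells, against 0.627 CPM (0.0759 to 2.26) in the reference B cells. It was found in 22.4% of them (19.8 to 25.1) at a median depth of 5951 UMIs, and in 0.257% of reference B cells at 2855 UMIs. At 1000 UMIs per cell the shares were 4.04% and 0. Mpo stood at 1.79 CPM and Elane at 5.66 CPM in the same cells, so that both were below Prtn3, whereas Mpo and Prtn3 were level in the Mpo-led cluster. Elane (4.00 to 7.77) was above the reference B cells (0.313 CPM, 0.00793 to 1.75), and for Mpo the intervals of both classes overlapped.

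Prtn3 was also above the reference in unnamed clusters. It stood at 22.2 CPM in the cluster led by Hbb-bs and Hbb-bt, at 18.7 CPM in the cluster led by Clec10a and Cd209a, genes of monocyte-derived and type 2 dendritic cells, and at 14.6 CPM in the cluster led by Slfn14 and Dyrk3. Doublet calls made up 22.8%, 17.2% and 60.8% of these clusters, against 8.22% of Ly6c-high monocyte-like cells, and their part in the Prtn3 levels was not tested. In the SCD-labelled library Prtn3 in Ly6c-high monocyte-like cells rested on 11 UMIs (2.46 CPM, 1.23 to 4.40), still above the reference B cells of that library (0.145 CPM, 0.00367 to 0.809). It was lower than in the wild-type-labelled library, with a log2 ratio of -4.16 (-5.18 to -3.30).

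Ly6c-low monocyte-like cells departed through the S100 genes. S100a8 stood at 435 CPM and S100a9 at 412 CPM in the wild-type-labelled library, while Ngp stood at 20.6 CPM, near the 18.8 CPM of the reference B cells. In the SCD-labelled library S100a8 stood at 48.7 CPM (42.8 to 55.3) and S100a9 at 33.9 CPM, with 0 UMIs of Ngp. The median cell of this class had 0 member UMIs in both libraries, and 10 of 448 and 7 of 1121 cells had 20 or more.

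Most of those few cells had S100a8 and S100a9 with a small share of the other members. Among residual cells with 20 or more member UMIs, 18 of 49 in the wild-type-labelled library and 11 of 11 in the SCD-labelled library had under 5% of them from the secondary and under 5% from the primary granule genes. They are a range on a count chosen after the data were seen, not a cell type. Of the 18 cells 9, and of the 11 cells 7, lay in the Ly6c-low monocyte-like cluster. The member UMIs of the 18 cells ranged from 24 to 358 (median 142) and those of the 11 cells from 21 to 180 (median 41.0). The 11 cells held 87.4% of the residual S100a8 UMIs of the SCD-labelled library and the 18 cells 13.4% of those of the wild-type-labelled library.

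These cells carried neutrophil markers in both libraries. Of the 12 neutrophil markers, 11 in each library were more than 2-fold higher than in the other Ly6c-low monocyte-like cells. No share of all genes is set beside this count. Since 9 of the 18 and 7 of the 11 cells lay in that class, the comparisons below also set cells of other classes against it. Cxcr2, a chemokine receptor of mature neutrophils, was found in 18 of 18 and in 11 of 11 cells, at 650 and 1453 CPM. The other Ly6c-low monocyte-like cells had 6.75 and 6.31 CPM, and the neutrophil-like cluster of the wild-type-labelled library had 157 CPM. Csf3r, the G-CSF receptor, stood at 714 and 1373 CPM, Mmp9, a gelatinase of tertiary granules, at 790 and 727 CPM, and Retnlg, a resistin-like protein of neutrophils, at 2716 and 1050 CPM. Granule transcripts were not absent, with Lcn2 in 7 of the 18 cells (306 CPM) and Mmp8, a secondary granule collagenase, in 10 of them (421 CPM). Ly6g was the exception in the SCD-labelled library, with 0 UMIs in the 11 cells, and G0s2 in the wild-type-labelled library, at 63.7 CPM against 34.3 CPM in the other cells. Ace, a marker of Ly6c-low monocytes, was absent from the 18 cells (634 CPM in the other cells of the class) and found in 1 of the 11. Treml4, another marker of Ly6c-low monocytes, was found in 6 of the 18 cells (166 CPM) and 4 of the 11 (135 CPM). Of the 18 cells 4 were marked as doublets, and of the 11 none. These cells are not among the neutrophil-like cells counted above.

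**Figure D5:**
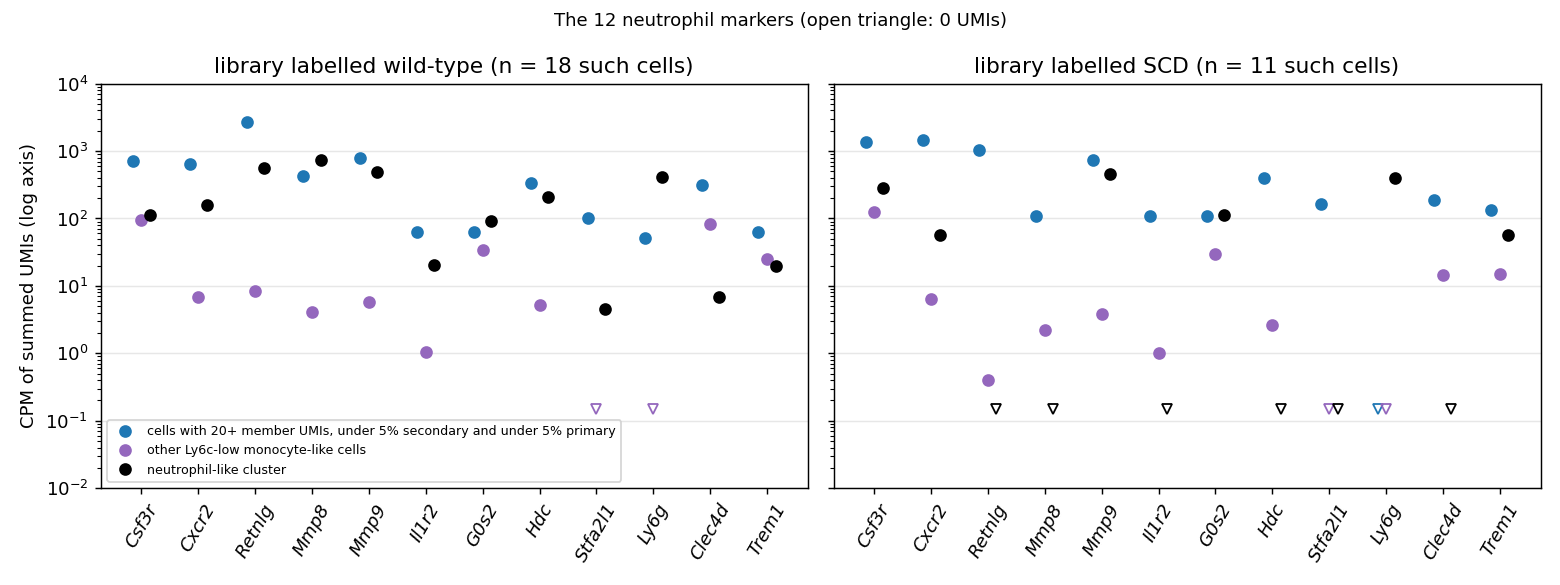
Level (CPM of summed UMIs, log axis) of the 12 neutrophil markers in the cells with 20 or more member UMIs of which under 5% came from secondary and under 5% from primary granule genes, in the other Ly6c-low monocyte-like cells and in the neutrophil-like cluster of each library, with open triangles below the lowest value for 0 UMIs. Cxcr2 stood at 650 and 1453 CPM in these cells in the wild-type-labelled library and the SCD-labelled library, while the other Ly6c-low monocyte-like cells had 6.75 and 6.31 CPM.

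T lymphocyte-like cells held more Mpo than other residual classes, but on little data. Their 67 cells in the wild-type-labelled library had 17 Mpo UMIs (95.7 CPM, 55.8 to 153), all in 4 cells. In the SCD-labelled library 106 cells had 1 Mpo UMI.

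Levels of the 10 genes were correlated over 41 profiles, each a cluster in a library with at least 50 cells. On log2(CPM + 1), S100a8 and S100a9 had a Pearson r of 0.992 and Ngp and Camp 0.994, Mpo and Ctsg had 0.913 and Elane and Prtn3 0.911, while S100a8 and Ctsg had 0.452. The sets did not separate fully. S100a9 had 0.921 with Lcn2, and Prtn3 had 0.793 with Lcn2 against 0.783 with Ctsg. The other genes most like S100a8 were Ap3s1 (0.763), Retnlg (0.752), Wfdc21 (0.752), Fcnb (0.751) and Cebpe (0.744). Those most like Mpo were Ms4a3 (0.901), Cebpe (0.856), 1700020L24Rik (0.849), Adgrg3 (0.847) and Rab44 (0.821). The profiles share their libraries and so the free RNA in them.

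Other granule and related genes were described by the same rule in residual cells. The mix of residual cells differed between the libraries, and its part in these ratios was not tested. Of the other primary granule genes 4 of 5 could be compared, and 2 were more than 2-fold lower in the SCD-labelled library, Prss57 (log2 ratio -2.84) and Cd63 (-2.81), while Srgn was higher (1.38) and Ctsc stood at -0.48. Of the other secondary granule genes 7 of 10 could be compared, with Mmp8 (-1.40) and Fcnb (-3.13) lower and Anxa1 (1.52) higher. Cybb (0.52), Cyba (-0.19) and Cd177 (0.99) did not pass 2-fold. Of the tertiary granule genes 8 of 8 could be compared, with Mmp25 (-1.67) lower and Mmp9 (2.08) and Itgam (1.11) higher, while Hp stood at -0.66 and Fpr2 at 0.24. In reference B cells of the wild-type-labelled and the SCD-labelled library Mmp9 stood at 3.45 and 2.03 CPM, and Itgam at 17.2 and 26.6 CPM. Some of these genes had high levels outside neutrophil-like cells, such as Cybb, a subunit of the phagocyte oxidase, at 758 CPM in residual cells of the wild-type-labelled library.

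Among the 13 other S100 genes 7 could be compared, with S100a1 (-2.33) and S100b (-6.91) lower in the SCD-labelled library and 4 higher. S100a4 (1.45), S100a6 (1.12), S100a10 (1.94) and S100a11 (1.38) were the higher ones in residual cells, the opposite direction to S100a8 and S100a9. In reference B cells S100a4 stood at 30.4 CPM in the wild-type-labelled library and 30.5 CPM in the SCD-labelled library. S100a6 stood at 151 and 180 CPM there, S100a10 at 119 and 218 CPM and S100a11 at 59.85 and 73.2 CPM. Of 9 granulocyte transcription factors 1 was lower, Cebpe (1.91 and 0.479 CPM), which drives secondary granule genes, and none was higher, with Spi1 at 0.24, Cebpb at 0.86 and Irf8 at -0.05. Of 7 receptors that bind member products 6 could be compared, with none lower and Slc22a17 (1.07), a lipocalin 2 receptor, higher, while Tlr4, which binds S100a8 and S100a9, stood at -0.58. Mmp8, Fcnb, Mmp25, S100a1, S100b and Slc22a17 are named after their values were seen. Of 6 protease inhibitors 4 could be compared, with none lower and 2 higher, Serpinb1a (1.47), an inhibitor of elastase and proteinase 3, and Slpi (1.13), a leukocyte protease inhibitor, and with Cst3 at 0.72 and Cstb at -0.81.

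Macrophage and erythroid genes stood at larger shares of their source level in B cells, and their source cells were more common. RPM-like and erythroid-like cells were 24.5% and 23.5% of kept cells of the wild-type-labelled library, and neutrophil-like cells 1.25%. In the SCD-labelled library they were 13.3%, 3.28% and 0.0163%. The part of source abundance in the shares below was not tested. In reference B cells of the wild-type-labelled library C1qa, a complement gene of macrophages, stood at 42.1% of its RPM-like level and Alas2, the erythroid heme synthesis enzyme, at 4.20% of its erythroid-like level, against 0.0475% for S100a8 and 0.0383% for Ngp relative to neutrophil-like cells. In the SCD-labelled library these were 17.2% for C1qa and 0.777% for Alas2. Genes of lymphocytes did not share that direction. Cd79a, a subunit of the B cell receptor, stood in RPM-like cells at 0.324% of its B cell level in the wild-type-labelled and 0.861% in the SCD-labelled library. Igkc stood at 0.323% and 1.17% and Ighm at 0.532% and 0.991%. In reference B cells the T cell gene Trbc2 stood at 0.246% and 0.295% of its T lymphocyte-like level, Cd3e at 0 and 0.310%, and Trac at 1.24% and 0.801%. The part of library-wide free RNA in the granule gene values was not tested.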

How the data were processed

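The single-cell libraries of F4/80-enriched spleen cells, 1 labelled wild-type and 1 labelled SCD, were analysed, and the dendritic cell libraries of the series were not analysed here. The authors deposited UMI counts per gene and barcode, not normalized, made with Cell Ranger (version 4.0.0 in the submitters' processing notes and 3.1.0 in the matrix header) on GRCm38. Barcodes with under 500 or over 5000 genes, over 15% mitochondrial or over 30% ribosomal UMIs were left out, and genes found in fewer than 20 cells were left out of clustering. Depth was a median of 4115 UMIs per kept cell in the wild-type-labelled library and 4570 in the SCD-labelled library.

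Counts were normalized with scran 1.30.0 (R 4.3.3) and clustered by the Leiden method (scanpy 1.11.5, python-igraph 0.11.9, Python 3.11.15; 2000 variable genes, 30 principal components, 15 neighbours, resolution 1). The 10 genes, hemoglobin and sex-linked genes took no part in the clustering. Clusters were named from marker lists, and the limits for naming were chosen once a first clustering was known. Clusters without a name are called by their leading genes. Levels are CPM of UMIs summed per class and library. Intervals are exact Poisson, Clopper-Pearson or conditional exact (scipy 1.17.1) and cover counting error only. They do not cover variation between mice, and with 1 mouse per condition no p-value was computed. In simulated counts drawn independently for each gene, 95.4% of the intervals of the ratios held the true value. Those counts follow the model that the intervals assume. The simulation therefore cannot show how the intervals hold where a few cells carry most member UMIs. Doublets were marked with Scrublet and kept. Its threshold marked none in the wild-type-labelled library, so the cells at or above its highest 10% of scores were taken there (2037 cells, since scores tie), and 1680 cells were marked in the SCD-labelled library.

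The members and lists were chosen with earlier results of these data known. The 10 members were all named. Up to 4 genes per other list were named, those with the most UMIs in neutrophil-like and Mpo-led cells, and 5 genes most like S100a8 and 5 most like Mpo. The lists were other primary, other secondary and tertiary granule genes, other S100 genes, granulocyte transcription factors, receptors, protease inhibitors, and genes of erythroid cells (3 of 3 more than 2-fold lower in residual cells of the SCD-labelled library), macrophages (2 of 3 lower), B cells (3 of 3 higher) and T cells (2 of 3 higher). Cell filter, doublets, normalization, resolution, clustering genes, separate clustering, CPM total, weighting of cells and removal of the top 1% of cells were varied. Leaving out the upper limit of genes, B cells with 5 or more member UMIs, neutrophil-like cells and shared barcodes was added after seeing the data.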

Additional observations from a re-analysis of the deposited data

Results flagged for a closer look

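Primary granule genes had many UMIs in barcodes outside the cell filter, which enter no comparison above. In the wild-type-labelled library these barcodes held 52.7% of the Mpo UMIs, 42.1% of the Elane, 37.8% of the Prtn3 and 56.8% of the Ctsg UMIs. In the SCD-labelled library they held 65.9% of the Mpo, 36.4% of the Elane, 37.5% of the Prtn3 and 28.6% of the Ctsg UMIs. Most in the wild-type-labelled library lay in the 1114 barcodes with over 5000 genes (median 24634 UMIs), which held 4361 primary granule UMIs, 44.5% of the total. Of those barcodes 20 had 20 or more such UMIs, against 40 of 19419 kept cells. The same barcodes held 9.31% of the S100a8 and 9.74% of the Ngp UMIs. The levels given for the Mpo-led cluster above therefore describe the cells that pass an upper limit on genes.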

How the results depend on the processing

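No paired analysis was possible because each condition had 1 library. No replicate was left out for the same reason, and depth limits the primary granule genes in B cells to a few UMIs.

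The log2 ratio of the summed members in the reference B cells (-4.91) stayed negative under every alternative run. It was -2.25 with at least 200 genes per cell, -1.53 without doublets, -2.35 with cell totals in place of scran, -2.28 at resolution 0.5, -1.03 with the granule and S100 lists left out of the clustering, -1.78 with each library clustered on its own and -1.75 with no upper limit of genes and cell totals together. Without B cells of 5 or more member UMIs it was -5.67 (200 genes, and resolution 2), -5.69 (no doublets, and resolution 0.5), -5.86 (cell totals), -5.64 (members among the variable genes) and -5.78 (no upper limit with cell totals). With the top 1% of cells left out it gave no ratio, since the SCD-labelled library had 0 UMIs.

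The neutrophil-like share in the wild-type-labelled library (1.25%) was 1.43% with the members among the variable genes. In the SCD-labelled library the neutrophil-like count (2 cells) was 14 with the members among the variable genes and 16 with cell totals. It was also 16 with no upper limit of genes and cell totals together, and 0 with each library clustered on its own. The Mpo-led share (1.05%) was 0.896% with each library clustered on its own, and no Mpo-led cluster formed at resolution 0.5 or with no upper limit of genes and cell totals together. The reference B cell level as a share of the neutrophil-like level (0.0443%) was 0.0573% with at least 200 genes, 0.0695% without doublets, 0.0631% with cell totals, 0.0565% at resolution 2, 0.0600% with the members among the variable genes, 0.0529% with separate clustering, 0.0875% with no upper limit and cell totals together and 0.0569% as a mean over cells. Without B cells of 5 or more member UMIs it was 0.0573%, 0.0513%, 0.0631%, 0.0565%, 0.0600% and 0.0634% (200 genes, no doublets, cell totals, resolution 2, members among the variable genes, no upper limit with cell totals). For single genes 40 values moved beyond their interval and 156 did not. The sign changed for Mpo (log2 ratio -0.53, and 0.43 with each library clustered on its own) and Elane (-0.11, and 0.18 as a mean over cells), whose intervals include 0.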
